A study of Mus musculus with 4 samples.

Results

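Translation factors are the proteins that load messenger RNA onto ribosomes, move the ribosome along it and release the finished chain. The genes described here are those whose symbol names an initiation factor, an elongation factor, a release factor, a cytoplasmic poly(A)-binding protein (Pabpc1, Pabpc4) or Tpt1. The rule reads the symbol only, but it was chosen with earlier results of these data known. The rule found 145 probe sets of 53 genes, out of 45037 non-control probe sets and 18193 genes with a probe set of their own on the array. The study compared pseudopodia (2 arrays) with cell bodies (2 arrays) of NIH/3T3, an immortalized mouse embryo fibroblast line, on Affymetrix Mouse430_2 expression arrays. All 4 samples came from cells grown in calf serum, then held in serum-free medium above a porous membrane with fibronectin on its underside for 1 h, and fixed in 0.3% formaldehyde. The pseudopodia samples were what had crossed to the underside, and the cell body samples what remained on top, the opposite face being wiped by hand in each case. Samples of a compartment are described as independent without mention of separate cultures, so the spread behind each p-value is that of these samples and may be technical.

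As background, eukaryotic translation starts when eIF2 brings the initiator tRNA to the small ribosomal subunit, together with eIF1, eIF1A, eIF3 and eIF5. The eIF4 group, which binds the cap, unwinds the leader and bridges to poly(A)-binding protein, recruits the messenger, and eIF5B then joins the large subunit. Elongation runs on eEF1A, which delivers aminoacyl-tRNA, on the eEF1B exchange subunits and on eEF2, which drives translocation. Messengers of the elongation factors, of Pabpc1 and Tpt1 and of some initiation factors belong to the 5' TOP class: the RNA begins with a C and a run of pyrimidines, through which mTOR signalling controls their translation. Local translation in protrusions is known from migrating fibroblasts and from neurons.

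The annotated 5' ends were read from RefSeq promoters of build GRCm38.p6, which held windows for 40 of the 53 genes. They are shown because the comparison of elongation with initiation factors rests on the 5' TOP class. Each line gives 30 bases, 5' to 3' on the gene's strand, and capitals mark the longest run of a C followed by at least 6 pyrimidines within 50 bases of the annotated start; a line without capitals has no such run and is centred on that start. The first 2 genes are on the 5' TOP list, the next is an eIF2 subunit outside it, and the last 4 are factors with a probe set higher in pseudopodia or, for Eif3a, with the fourth largest difference.
Eef1a1: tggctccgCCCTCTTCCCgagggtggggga
Eif3f: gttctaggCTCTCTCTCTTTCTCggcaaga
Eif2s3x: agcattttCCTTTTCTCTCCgagcaagatg
Eif3m: cggcaccgCTCTCTTTTCCggtcggcgtgt
Eif3a: atcacgtggttCCTTCCTTTCCgtctctgg
Eif2s2: cacgtaaggttggctttactgtacgcctgc
Eif5b: ggcgcctgggttcccacctggccggcggct
In Eef1a1 and Eif3f the run spans the annotated start, and in Eif2s3x it begins at the base before it. In Eif3m the run begins at position -20 and ends before the start, and in Eif3a it begins at position 32 past it. Such a run was present in the promoters of 4 of 6 members on the 5' TOP list and of 15 of 34 others. It is common: 40.7% of all 32851 promoter windows hold one on the gene's strand and 44.5% on the opposite strand. RefSeq starts need not be the starts used in these cells, and a window without the run says only that these letters are not in it. Whether a marked run, that of Eef1a1 included, lies in the messenger or is its 5' TOP sequence was not tested.

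In GRCm38.p6 the windows lie at chr9:78481708-78481737 (minus strand) for Eef1a1 and at chr7:108934403-108934432 (plus) for Eif3f. That of Eif2s3x is at chrX:94212631-94212660 (minus), that of Eif3m at chr2:105017026-105017055 (minus) and that of Eif3a at chr19:60790644-60790673 (minus). Eif2s2 was read at chr2:154892892-154892921 (minus) and Eif5b at chr1:37997995-37998024 (plus).

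Values are the deposited probe set intensities, with a floor of 20, and differences are pseudopodia minus cell bodies on the scale of log2(intensity + 1). Each gene is represented by its brightest probe set, and a call is an adjusted p under 0.05 from limma over all 11320 genes whose mean reached an intensity of 42.0. A second fit tested each of 22519 probe sets on its own. Array medians lay between 40.5 and 45.6. An array measures the share of a messenger in the RNA hybridized. These differences therefore say nothing of the amount of RNA per compartment or of the number of cells that gave it. The fibroblast markers Vim, S100a4, Col1a1 and Col1a2 were bright on all arrays, while Pdgfra was dimmer and Thy1 was at the floor. The summed intensity of 8 fibroblast markers was 36618 and 37254 in pseudopodia and 55371 and 50585 in cell bodies. The markers did not share this fall equally. The difference was -1.33 for Col1a1, -0.69 for Col1a2, -1.05 for Col3a1, -1.18 for Pdgfra and -1.21 for Pdgfrb. It was -0.10 for Vim and -0.12 for S100a4. The sum of 5 haematopoietic markers was at most 344 on any array, with the pan-leukocyte gene Ptprc at most 22.8, while that of 5 epithelial markers ran from 2481 to 3606, most of it from Krt14. The Actb control, read at both ends of its messenger, had a 3' over 5' log2 ratio of 0.56 and 0.65 in pseudopodia and 0.37 and 0.36 in cell bodies. That of the Gapdh control was -0.07 on both pseudopodia arrays and -0.10 on both cell body arrays. Their part in the results below was not tested.

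Of the 53 genes, 47 reached the filter and were tested. At the level of genes, 4 were higher in pseudopodia (8.51%), against 5.92% of all genes tested, and 0 were lower, against 8.69%. The unadjusted p of the same limma fit was under 0.05 for 7 higher members and 1 lower one, 8 of 47 where 31.4% of all genes were (3553 of 11320). The share of members called higher thus lay near the background. The median difference of the 47 was -0.02, beside -0.0020 over all genes, and it became 0.06 under quantile normalization, which moved the median of all genes to 0.05. The arrays of the compartments did not overlap for 30 of the 47 (63.8%), against 60.8% of all genes; 13 were higher, where 29.5% of all genes were, and 17 lower, where 31.4% were. A difference above 0 was seen in 18 of 47 members and 49.7% of all genes. The genes called, Eif3m, Eif1a, Eif5b and Eif3e, are all initiation factors. Every tested probe set of Eif3m, Eif1a and Eif3e is of a design that can match several transcripts. The setting without such probe sets therefore holds no value for these genes and cannot check their calls. With any 1 array left out the differences of the called genes stayed at 0.79 to 1.01 for Eif3m, 0.77 to 0.91 for Eif1a, 0.80 to 0.82 for Eif5b and 0.56 to 0.62 for Eif3e. Those designs called 0 of all genes tested, and with no filter on low values 2 of 18193 genes were called, none of them higher, so neither can show whether a member's call holds.

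The single probe sets showed more rises than the brightest ones did. Of 112 member probe sets tested, 15 were higher (13.4%), against 4.30% of all probe sets, and 1 was lower (0.893%), against 7.44%; either call was made for 11.7% of all probe sets. A difference above 0 was seen in 61 of the 112 and in 49.6% of all probe sets. These probe sets are not independent, since 4 of the 15 belong to Eif2s2 and a pair each to Eif1a and Eif1ax. Counted by gene, 10 of 47 members (21.3%) had a probe set called higher, against 6.36% of all 11320 genes. Members carried 2.38 tested probe sets each and all genes 1.71, and among genes with several the shares were 32.3% of 31 members and 9.93% of 4916 genes. Beside Eif3m, Eif1a, Eif5b and Eif3e these were Eif1ax, Eif2s2, Eif4g2, Eif5, Etf1 and Gspt1. No test of the members as a list was made.

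**Figure D1:**
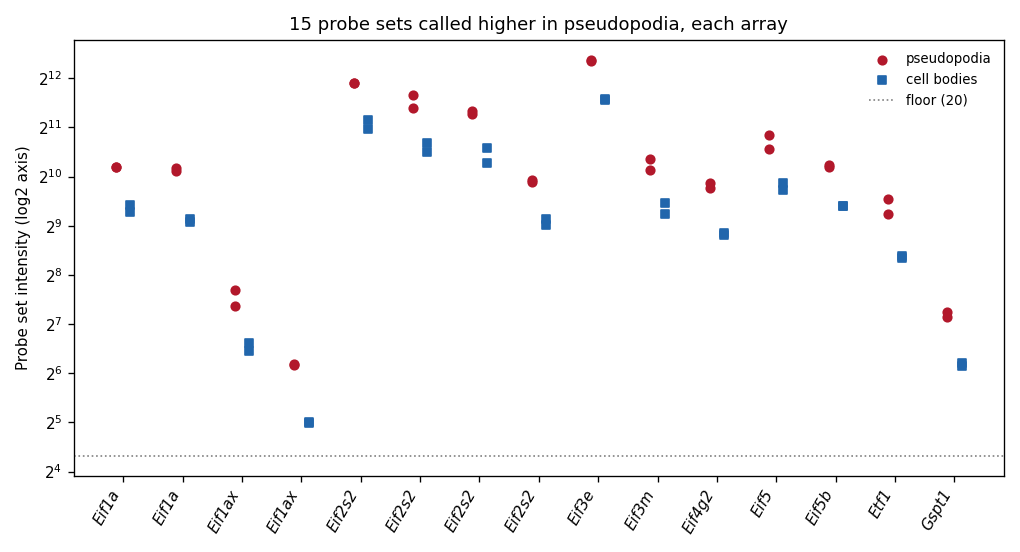
Intensity on each array (log2 axis) of the 15 probe sets called higher in pseudopodia, labelled by gene; circles are the 2 pseudopodia arrays, squares the 2 cell body arrays, and the dotted line is the floor of 20. In each of the 15 both pseudopodia arrays lie above both cell body arrays, at intensities from 31.6 (Eif1ax, cell bodies) to 5289 (Eif3e, pseudopodia).

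The factors that scan for the start codon included a called gene. Eif1a, which encodes eIF1A, the factor that holds the scanning ribosome open, read 1173 on each pseudopodia array and 624 and 687 on the cell body arrays (655.5 ± 45.0, SD, n = 2). Its difference was 0.84 (SE 0.13, adjusted p = 0.0236), which is 1.79-fold. Its second probe set read 1158 and 1099 in pseudopodia against 559 and 543 in cell bodies, a difference of 1.03 (adjusted p = 0.0263 in the probe set fit). Both probe sets thus separated the compartments by about the same factor.

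Eif1ax, an X-linked relative of Eif1a, followed with a smaller difference in its brightest probe set. That read 4897 and 4792 in pseudopodia and 3563 and 3883 in cell bodies, with a difference of 0.38 (SE 0.13, adjusted p = 0.127). Its dimmer probe sets were called, at differences of 0.99 (207 and 166 against 87.5 and 98.2) and 1.16 (72.4 and 72.6 against 31.6 and 32.3). Eif1a and Eif1ax are close relatives whose probe sets may share sequence, so they are not separate observations. Eif1b, a paralog of the start codon selector eIF1, read 460 and 380 in pseudopodia and 349 and 381 in cell bodies, and its arrays overlapped (difference 0.20, adjusted p = 0.472).

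Among the subunits of eIF2, the carrier of initiator tRNA, Eif2s2 was higher in pseudopodia at 4 of its 6 probe sets. Eif2s2 encodes the beta subunit, which contacts eIF5 and eIF2B. Its brightest probe set read 4197 and 4423 in pseudopodia and 3125 and 3165 in cell bodies, with a difference of 0.45 (SE 0.13) that was not called (adjusted p = 0.0805). The probe set fit called the next 4, with differences of 0.84 to 0.94. The first of them read 3850 and 3834 against 2264 and 2011 (adjusted p = 0.0357) and the last 978 and 951 against 519 and 561 (adjusted p = 0.0345). The dimmest went the other way, at 81.2 and 73.8 against 118 and 109 (difference -0.54, adjusted p = 0.0868).

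The gamma subunit, which binds GTP and the tRNA, gave no call. Eif2s3x read 2635 and 2167 in pseudopodia and 2091 and 2436 in cell bodies, so its arrays overlapped (difference 0.08, adjusted p = 0.789), and the remaining probe sets gave 0.20 and 0.65. Its Y-linked copy Eif2s3y lay at the floor on all 4 arrays at both probe sets. The exchange factor eIF2B recharges eIF2 with GTP and is the target of the integrated stress response. Of its 5 tested subunits 0 were called in either direction, where 14.6% of all genes were. The unadjusted p of the limma fit was under 0.05 for 0 of the 5, where it was for 31.4% of all genes. The subunits ran from Eif2b1, of the regulatory subcomplex, at 0.08 (1053 and 845 against 869 and 913) to Eif2b4 at -0.22 (1169 and 1198 against 1338 and 1424, adjusted p = 0.316). The median of the 5 was -0.07.

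**Figure D2:**
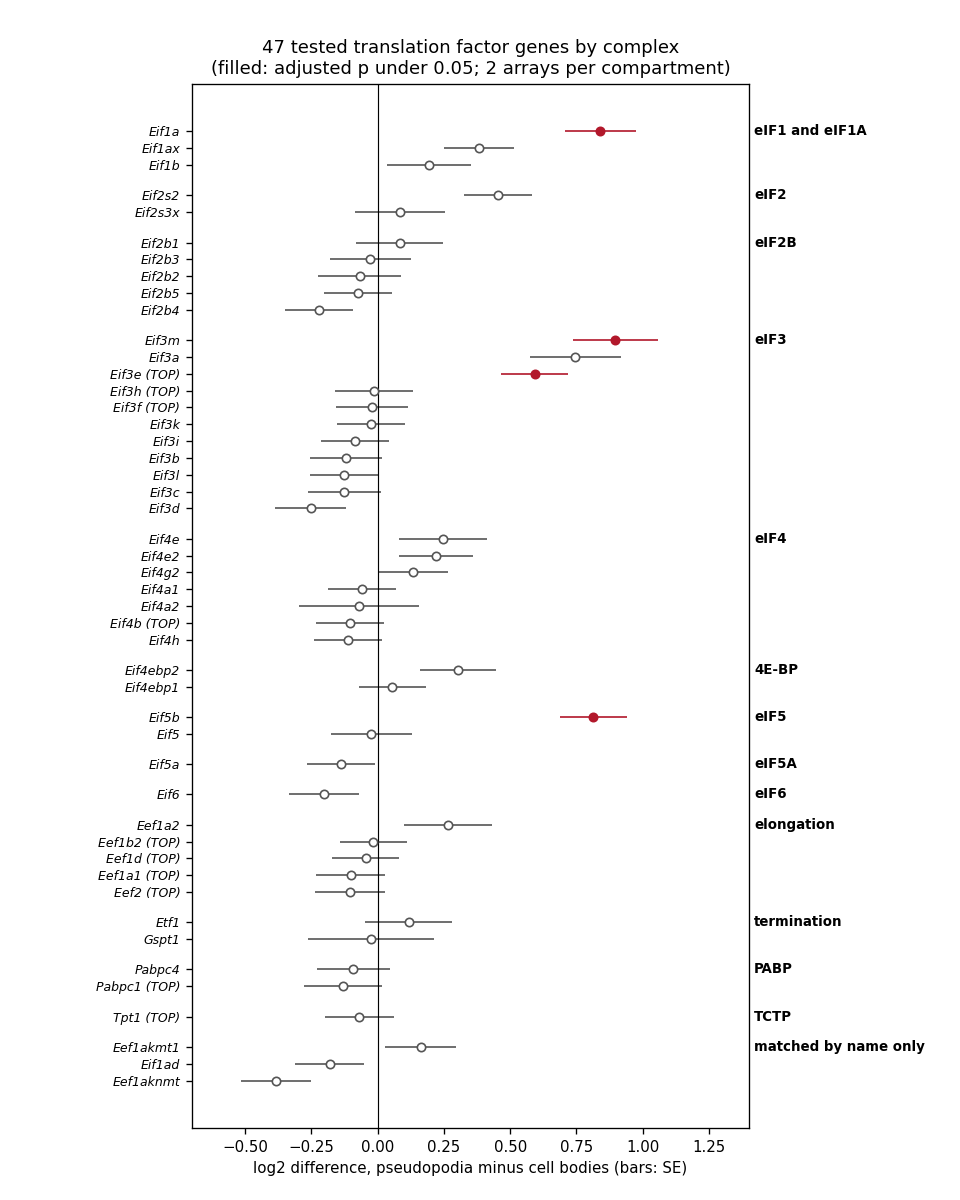
Log2 difference, pseudopodia minus cell bodies, of the 47 tested genes by complex (points, with SE as bars, from 2 arrays per compartment); filled points are the 4 genes called by limma, and TOP marks the textbook 5' TOP list. The 3 largest values are Eif3m at 0.90, Eif1a at 0.84 and Eif5b at 0.81, and 8 of 11 eIF3 subunits lie below 0.

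Within eIF3, the scaffold that holds the small subunit and the messenger together, 3 of 11 tested subunits stood apart from the other 8. Eif3m, of the core with PCI and MPN domains, was the highest member of all: 1316 and 1130 in pseudopodia against 706 and 607 in cell bodies (1223 ± 132 and 656.7 ± 70.0, SD, n = 2 each). This was a difference of 0.90 (SE 0.16, adjusted p = 0.0294), or 1.86-fold. Its other probe set gave 0.79 (adjusted p = 0.103). Eif3e, another PCI subunit of that core and on the 5' TOP list, read 7511 and 7532 against 5092 and 4888 (4990 ± 145, SD, n = 2), a difference of 0.59 (SE 0.13, adjusted p = 0.0442). It stayed close to the threshold: the same probe set had an adjusted p of 0.0626 in the probe set fit, and the call was lost with median centring (0.0763) and with the mean of all probe sets (0.0613). With no filter its adjusted p was 0.0690, but that setting called no gene higher and so cannot show whether the call holds. A dimmer probe set of Eif3e, at 5239 and 5289 against 3005 and 3040, was called with 0.80 (adjusted p = 0.0350), and a further one gave 0.44.

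Eif3a, the largest subunit and the one around which the core assembles, read 3480 and 4485 in pseudopodia against 2410 and 2302 in cell bodies. Its difference of 0.75 (SE 0.17) missed the threshold (adjusted p = 0.0524), and its second bright probe set gave 0.59. The gene passed under quantile normalization (0.0411), median centring (0.0317), a pseudocount of 16 (0.0387), the replicate block (0.0454), a stricter filter (0.0150) and a variance trend (0.00266). With the mean of its probe sets, which includes a dim one that went the other way, the difference was 0.14 (adjusted p = 0.526).

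The other 8 eIF3 subunits had differences from -0.25 to -0.01, and none was called. Eif3h and Eif3f, both of the MPN type and on the 5' TOP list, were at -0.01 (8847 and 8087 against 9156 and 7951) and -0.02 (8433 and 8407 against 9017 and 8090). Their arrays overlapped, and under quantile normalization their differences were 0.06 and 0.05, near the median of all genes there (0.05). Eif3d, which can bind the cap, was lowest, at 5673 and 5122 in pseudopodia and 6562 and 6292 in cell bodies, with a difference of -0.25 (SE 0.14, adjusted p = 0.280). The median of all 11 was -0.02, and it became 0.05 under quantile normalization.

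Of 7 tested genes of the cap-binding group 0 were called in either direction, where 14.6% of all genes were. Eif4e, the cap-binding protein, was highest, at 1687 and 1383 in pseudopodia and 1205 and 1373 in cell bodies (difference 0.25, adjusted p = 0.382). Its next probe set gave 0.52 (1115 and 1017 against 691 and 800), and a dim one gave -0.02. Its relative Eif4e2, which represses capped messengers, was at 0.22 at its brightest probe set. The 5 tested probe sets of Eif4e2 ran from -0.75 to 0.53. The helicases Eif4a1 and Eif4a2, the helicase cofactor Eif4b and its relative Eif4h had differences from -0.11 to -0.06. The unadjusted p of the limma fit was under 0.05 for 0 of the 7 genes, where it was for 31.4% of all genes. Eif4h, the lowest, read 7323 and 7185 in pseudopodia and 7697 and 7985 in cell bodies (adjusted p = 0.609). Eif4h and Eif4b had both pseudopodia arrays under both cell body arrays.

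Eif4g2, a relative of the scaffold eIF4G that lacks the cap-binding site, depended on the probe set. Its brightest read 6778 and 6479 in pseudopodia and 5877 and 6197 in cell bodies, a difference of 0.14 (adjusted p = 0.544). The next gave 0.37 (4284 and 3889 against 2982 and 3347), and the third 0.98 (929 and 869 against 448 and 465), which the probe set fit called (adjusted p = 0.0278). All 4 tested probe sets were above 0. The 4E-BP repressors, which keep eIF4E from the scaffold, were not called: Eif4ebp2 was at 0.30 (1956 and 2179 against 1586 and 1764, adjusted p = 0.229) and Eif4ebp1 at 0.06 (7623 and 7341 against 7359 and 7035, adjusted p = 0.811).

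The factors of subunit joining split. Eif5b, the GTPase that joins the subunits, read 1179 and 1199 in pseudopodia against 676 and 677 in cell bodies, with no overlap. Its difference was 0.81 (SE 0.13, adjusted p = 0.0225), or 1.76-fold, and its second probe set gave 0.67 (adjusted p = 0.108). Eif5, the GTPase-activating partner of eIF2, was at -0.02 at its brightest probe set, with overlapping arrays (3282 and 3874 against 3464 and 3796). Its next probe set read 1506 and 1847 against 846 and 934 and was called, at 0.91 (adjusted p = 0.0418), so the direction of Eif5 depends on the probe set read.

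Eif6, which keeps the subunits apart, read 5377 and 5053 in pseudopodia against 5816 and 6179 in cell bodies, a difference of -0.20 (adjusted p = 0.368). Eif5a, the hypusine-bearing protein that helps ribosomes past stalling sites, read 10086 and 9688 against 10549 and 11223 (difference -0.14, adjusted p = 0.535). Both were lower on each pseudopodia array than on either cell body array, and neither was called.

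The elongation factors had small differences between the compartments, apart from the dim Eef1a2. Of 5 tested genes, 0 were called in either direction by limma, where 14.6% of all genes were, and 0 were at an unadjusted p under 0.05, where 31.4% of all genes were. Eef1a1, the main carrier of aminoacyl-tRNA, read 11465 and 10614 in pseudopodia and 11896 and 11783 in cell bodies, a difference of -0.10 with a 95% interval of -0.44 to 0.24. Eef2, the translocase, read 10686 and 9967 against 11291 and 10891, also at -0.10 (interval -0.44 to 0.23). The exchange subunits Eef1b2 (8463 and 8265 against 8468 and 8440) and Eef1d (7839 and 7541 against 7894 and 7969) were at -0.02 and -0.05; under quantile normalization they were at 0.05 and 0.03, no higher than the median of all genes in that setting (0.05). Eef1a2, the muscle and neuron form, was dim, at 59.8 and 75.7 against 56.6 and 55.0 (difference 0.27, adjusted p = 0.347).

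Pabpc1 and Tpt1, also of the textbook 5' TOP class, lay in the same range. Pabpc1, the main poly(A)-binding protein, read 9869 and 8664 in pseudopodia and 10635 and 9644 in cell bodies (difference -0.13, adjusted p = 0.603); its other probe set, at 88.2 and 146 against 183 and 221, gave -0.82 (adjusted p = 0.141). Tpt1, the translationally controlled tumour protein, read 11724 and 10984 against 11902 and 11912 (difference -0.07, adjusted p = 0.764). Pabpc4, the inducible poly(A)-binding protein outside the list, read 4242 and 3833 against 4164 and 4430, with overlapping arrays (difference -0.09, adjusted p = 0.704).

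Set side by side, the median difference was -0.05 for 5 elongation factors, -0.06 for 10 genes on the 5' TOP list and -0.02 for 31 initiation factors, beside -0.0020 for all genes. Under quantile normalization, which moved the median of all genes to 0.05, they were 0.03, 0.01 and 0.07. Without the genes that both lists hold, the 27 initiation factors outside the 5' TOP list had a median of -0.02 (range -0.25 to 0.90) and 3 calls, all higher, where 5.92% of all genes were called higher. The 6 genes of the 5' TOP list that are not initiation factors had a median of -0.08 (range -0.13 to -0.02) and 0 calls. The difference between the classes was not tested. They differed in brightness, with a median intensity of 8498 on the 5' TOP list and of 3604 for initiation factors outside it, and the brightest array value of all was 15025.

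Brightness moved with the differences. Over an intensity of 5000, a bound chosen after the values were seen, 20 members had a median of -0.09 and 1 was called, and the 342 genes tested there had a median of -0.08 and 5.56% called. Between 1000 and 5000, 19 members had a median of -0.02 and 0 calls, against 15.2% of 2678 genes. Under 1000, 3 of 8 members were called, against 14.8% of 8300 genes. In members with several tested probe sets, the median of the dimmer ones lay above the brightest in 20 of 31 (64.5%), against 48.1% of 4916 genes. The part of brightness in the values of the elongation factors was not tested.

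**Figure D3:**
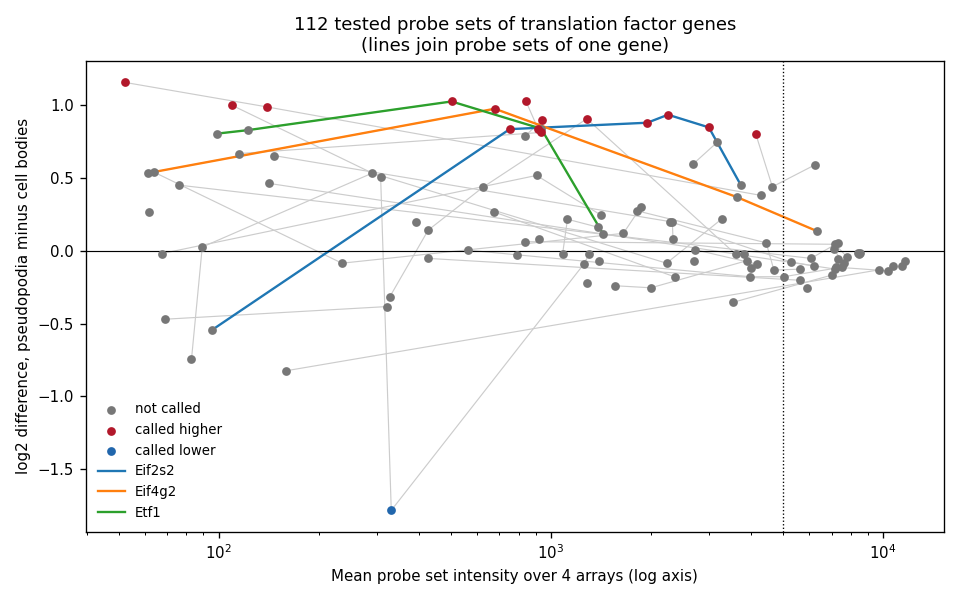
Log2 difference of the 112 tested member probe sets against their mean intensity over 4 arrays (log axis); lines join probe sets of 1 gene, with Eif2s2, Eif4g2 and Etf1 coloured, and the dotted line marks 5000. Of the 27 probe sets above 5000, 0 are called and the values run from -0.25 to 0.59, while the 15 called higher lie below it.

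The release factors also depended on the probe set. Etf1, which encodes eRF1 and reads the stop codon, was at 0.12 at its brightest probe set (1478 and 1500 in pseudopodia, 1224 and 1540 in cell bodies, adjusted p = 0.685). Its other 4 tested probe sets gave 0.81 to 1.03, and 1 of them was called (746 and 605 against 336 and 323, adjusted p = 0.0328). All 5 were above 0.

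Gspt1, the GTPase eRF3 that works with eRF1, had probe sets called in both directions. Its brightest read 1588 and 1024 in pseudopodia against 1312 and 1284 in cell bodies, an overlap around a difference of -0.02. A dim probe set at 152 and 141 against 70.9 and 74.2 was called higher (1.00, adjusted p = 0.0273). Another, at 115 and 183 against 401 and 625, was called lower (-1.78, adjusted p = 0.0390) and is the 1 member probe set called lower. Which transcripts these probe sets read is not given in the files used, so no direction is assigned to Gspt1.

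Some members gave little or no reading. Eif4a3, Eif4e3, Eif4g3, Eif5a2, Eif2s3y and the methyltransferase Eef1akmt2 lay under the filter at their brightest probe set. The symbol rule also took 3 tested genes that share a name and not a role in the cycle, Eif1ad and the eEF1A methyltransferases Eef1akmt1 and Eef1aknmt; Eef1aknmt had the lowest difference of all members, -0.38 (291 and 267 against 357 and 370, adjusted p = 0.127). A probe set shared between the eEF1 subunit Eef1g and Gm29753, outside the rule, read 9735 and 9248 in pseudopodia and 10272 and 10202 in cell bodies (difference -0.11, adjusted p = 0.663). A probe set shared by Eif4a3 and Gm5576 gave -0.36 (adjusted p = 0.225).

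Regulators and partners of these factors included calls in both directions. Of 41 tested genes on a list of related translation genes, 5 were higher and 3 lower, where 5.92% and 8.69% of all genes were, with a median of -0.01. Eif2a, which can deliver initiator tRNA without eIF2, read 382 and 327 in pseudopodia against 140 and 112 in cell bodies, a difference of 1.49 (SE 0.18, adjusted p = 0.0170). Paip1 and Paip2, which bind poly(A)-binding protein as an activator and an inhibitor, rose by 1.07 (194 and 192 against 86.0 and 96.7) and 0.72 (1510 and 1297 against 875 and 823). Mcts1, a reinitiation factor, and Abce1, which recycles ribosomes, rose by 0.82 each; the call of Abce1 was lost with the mean of its probe sets (adjusted p = 0.0532).

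Those that fell include a phosphatase subunit and a kinase that act on eIF2. Ppp1r15b, which directs the phosphatase that restores eIF2, read 563 and 604 in pseudopodia and 1590 and 1507 in cell bodies (difference -1.41, SE 0.13, adjusted p = 0.0166). Eif2ak3, the kinase PERK of the endoplasmic reticulum membrane, read 215 and 261 against 599 and 513 (difference -1.22, SE 0.17, adjusted p = 0.0194). Dph1, of the enzyme that begins the diphthamide mark on eEF2, fell by 0.98 at a low level (33.2 and 39.6 against 63.9 and 82.2), and its call was lost with a variance trend (adjusted p = 0.0572).

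**Figure D4:**
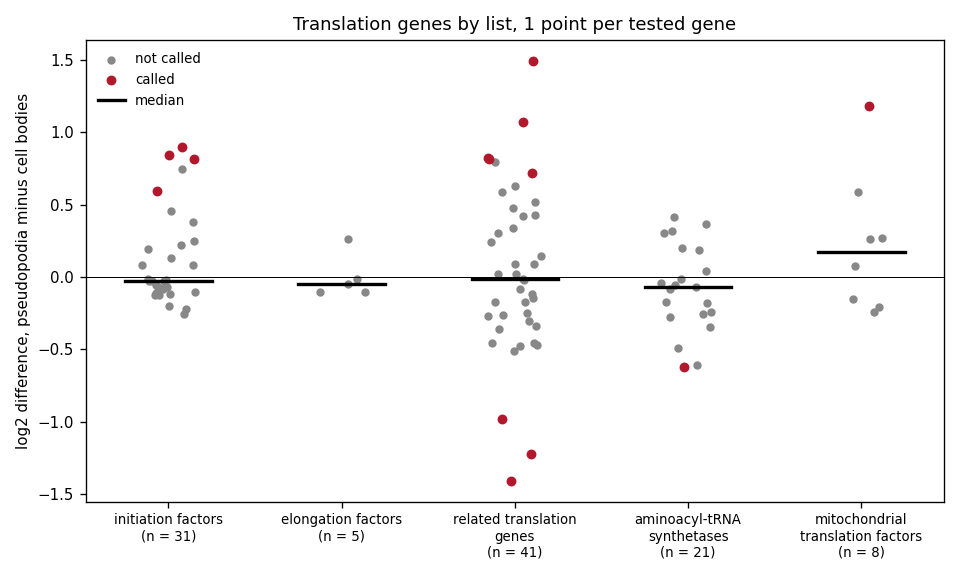
Log2 difference of each tested gene (points) in initiation factors, elongation factors, related translation genes, cytosolic aminoacyl-tRNA synthetases (with Aimp1 and Aimp2) and mitochondrial translation factors. Bars are medians and red points are called by limma. The 41 related genes run from -1.41 to 1.49, a wider range than the 31 initiation factors at -0.25 to 0.90. The related genes are also dimmer, with a median intensity of 893 against 3828, and the part of brightness in the range was not tested.

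Cytosolic aminoacyl-tRNA synthetases charge the tRNAs that eEF1A carries. Their list held 21 tested genes, among them Aimp1 and Aimp2, which are not synthetases. Of the 21, 0 rose and 1 fell, where 5.92% and 8.69% of all genes did, with a median of -0.07. That was Vars, the valyl-tRNA synthetase that binds the eEF1 complex, at 1817 and 1780 in pseudopodia against 2734 and 2791 in cell bodies (difference -0.62, SE 0.13, adjusted p = 0.0396, and 0.0579 under quantile normalization). Of 8 mitochondrial translation factors, 1 rose, the release factor Mtrf1l, at 133 and 122 against 68.1 and 45.6 (difference 1.18, adjusted p = 0.0338). Messengers of cytoplasmic ribosomal proteins share the 5' TOP class. Their list was taken by symbol and includes the related genes Rpl7l1, Rpl22l1 and Rps27l. Its 46 tested genes had a median difference of -0.04 and a median intensity of 10563. Of the 46, 1 was called in each direction, where 5.92% of all genes were called higher and 8.69% lower. Rps6 was higher (0.87; 3133 and 2790 against 1642 and 1597). Rpl12 was lower (-2.87) at a probe set far dimmer than the list's median, with 93.2 and 73.5 in pseudopodia and 613 and 608 in cell bodies.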

How the data were processed

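Per the labels, each array measured biotin-labelled total RNA of 1 sample, isolated with Trizol LS after reversal of the formaldehyde crosslinks. The authors deposited probe set intensities, not logged; the sources used here do not state how probes were summarized or arrays scaled. The array records list 1 chip lot and 1 fluidics station, with another module for each array, so no batch could be fitted. Symbols came from the platform annotation, and all 53 gene IDs matched RefSeq (GRCm38.p6). Members and lists were chosen with earlier results of these data known. Log2(intensity + 1) of the deposited values was fitted with limma 3.58.1 in R 4.3.3 (lmFit, eBayes, two-sided, no covariate; 2 residual and 2.90 prior degrees of freedom) over all genes or probe sets above the median of non-control probe sets, with Benjamini-Hochberg adjustment. The 64 control probe sets were left out. The code was tested on simulated data. Precision is limited by having 2 arrays a compartment; 4 arrays can be split into pairs in 3 ways, so no permutation test was run. Values on every array are given for members called in either fit, for the elongation factors, Pabpc1, Pabpc4 and Tpt1, and for the extremes of each complex; non-members are named where a list's gene was called. Alternatives were quantile normalization, median centring, a pseudocount of 16, no filter or a stricter one, other probe set choices, an intensity trend in the variance, a replicate block and leaving out each array.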

Additional observations from a re-analysis of the deposited data

How the results depend on the processing

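Leaving out any array leaves a compartment with 1, assumed to vary like the other: limma then called 0 to 0 member genes higher and 0 to 0 member probe sets, but also 0 of all genes, so these counts say nothing of stability. Member genes called higher numbered 0 with no filter (0 of all genes), 7 with an intensity trend (1081 of all genes, against 670 without) and 10 by any probe set; 1 was called lower with the trend. Probe sets called numbered 3 with no filter, 10 without probe sets that can match several transcripts and 27 with the trend. Medians under quantile normalization were 0.056 for all members, 0.072 for initiation, 0.029 for elongation, 0.010 for 5' TOP and 0.048 for eIF3. For elongation the median was -0.079 with median centring, -0.073 with the stricter filter and -0.102 without multi-match probe sets, where that of eIF3 was -0.119. Leaving out 1 array gave medians of -0.075 to -0.010 (all members), -0.070 to 0.058 (initiation), -0.073 to -0.017 (elongation), -0.104 to -0.020 (5' TOP) and -0.095 to -0.003 (eIF3). With the replicate number as a block, 5 member genes were called higher (988 of all genes, against 670) and 18 member probe sets were called, and the median of all members was -0.025. The labels do not say whether same-numbered arrays share a culture, so the number was not taken as a pairing. Deviations of same-numbered arrays from the group means correlated at 0.342 over genes. With 2 arrays a compartment both numbers give this same value, so it cannot decide whether the arrays are paired. Quantile normalization moved the median of all genes from -0.002 to 0.052; values below 0.052 stay under that median. It changed the sign for Eef1b2 (0.049), Eef1d (0.029), Eif2b2 (0.072), Eif2b3 (0.037), Eif2b5 (0.056), Eif3b (0.006), Eif3f (0.048), Eif3h (0.060), Eif3k (0.103), Eif4a1 (0.010), Eif4a2 (0.028), Eif5 (0.110), Gspt1 (0.071) and Pabpc4 (0.031). With the mean of probe sets they did for Eif1ad (0.043), Eif3c (0.018), Eif4b (0.007), Eif4e2 (-0.010), Eif5 (0.229) and Gspt1 (0.069), and without multi-match probe sets for Eef1akmt1 (-0.021), Eif4ebp1 (-0.052), Eif4h (0.004) and Eif5 (0.907). Leaving out 1 array changed the sign for Eef1b2 (-0.033 to 0.001), Eif2b1 (-0.075 to 0.242), Eif2b2 (-0.214 to 0.080), Eif2b3 (-0.147 to 0.094), Eif2s3x (-0.059 to 0.329), Eif3f (-0.099 to 0.058), Eif3h (-0.114 to 0.089), Eif4a2 (-0.291 to 0.149), Eif5 (-0.144 to 0.095), Etf1 (-0.049 to 0.282) and Gspt1 (-0.342 to 0.291). The cause of these changes was not tested. Of 748 recomputed values, 609 kept direction and call. That count includes the setting with no filter, which called 2 of all genes, and those with 1 array left out, which called 0. It therefore does not measure how stable the calls are.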

Other observations

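A probe set shared by Ankhd1 and the translation repressor gene Eif4ebp3 read 530 and 737 in pseudopodia and 483 and 521 in cell bodies (difference 0.32, adjusted p = 0.386 by limma in the probe set fit). It belongs to no gene above, since it carries more than 1 symbol.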
